A study of Homo sapiens with 4 samples.

Results

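The chemokine ligand genes were followed in 2 HER2-positive breast cancer cell lines and in lapatinib-resistant clones of them. The family was taken as 41 listed genes, and a gene was found on the array through the RefSeq accession of its probes. This gave 40 of the 41 genes, with 50 probes, among 16422 genes named in this way. The exception was CXCL16, which is not analysed here. Total RNA was hybridized from SkBr3 parental cells, from the lapatinib-resistant clone of SkBr3 (SkBr3/Lap), from BT474 parental cells and from the lapatinib-resistant clone of BT474 (BT474/Lap), with 1 single-color Agilent array for each. Both lines were grown in DMEM/F12. The clones had been selected in rising doses of lapatinib, a small molecule that blocks the kinases of EGFR and HER2, up to 1 μM, and they are labelled as lapatinib-treated, whereas the parental cells are labelled as given vehicle. Each resistant group is thus 1 clone and 1 array, so that resistance, clonal origin and the presence of drug cannot be told apart, and no test of a clone against its parent was possible. The labels number the SkBr3 clone 3 and the BT474 clone 6, while the paper uses these numbers the other way round, so no clone number is used below.

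Chemokines are small secreted proteins that bind G protein-coupled receptors and guide the migration of leukocytes. Their names follow the spacing of the first cysteines (CC, CXC, CX3C and XC), and the CXC ligands with a glutamate-leucine-arginine (ELR) motif act on neutrophils. Many of the inflammatory ligands, CXCL8, CXCL1, CCL2, CCL5 and CCL20 among them, are known targets of NF-κB, CXCL9, CXCL10 and CXCL11 are induced by interferon, and others such as CXCL12, CXCL14 and CCL28 are made by epithelium or stroma without an inflammatory stimulus. Tumor cells of epithelial origin can make many of these ligands themselves.

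Signals are the processed intensities of the arrays, and fold changes are differences of log2 signals after subtraction of the 75th percentile of each array. That percentile was 1115 in SkBr3 and 2074 in SkBr3/Lap, and 1158 in BT474 and 1681 in BT474/Lap, so that a signal had to be higher on a clone's array to stand at the same scaled level. The scanner software flags probes that stand well above background, and the dimmest signals with this flag lay between 13.3 and 16 on the 4 arrays. Where only 1 of 2 arrays was so marked, a fold change is a limit and is written as at least N-fold. The array of SkBr3/Lap was on another slide than the other 3, so slide and clone cannot be told apart in the SkBr3 comparison, whereas the BT474 pair shared a slide. Of the luminal epithelial markers KRT8, KRT18, KRT19, EPCAM, CDH1, ERBB2 and GATA3, all 7 were well above background on both BT474 arrays and all but CDH1 on both SkBr3 arrays. Of 15 leukocyte markers 7 were so marked in SkBr3 and 9 in SkBr3/Lap, with summed signals of 7705 and 44379, of which CSF1R alone gave 5913 and 42225. In BT474 and BT474/Lap they numbered 6 and 8, with summed signals of 1423 and 2308. PTPRC, CD3D, MS4A1 and SPI1, which define leukocytes and their main lineages, carried the flag on none of the 4 arrays. Of 10 fibroblast and endothelial markers 2 were marked in SkBr3 and 6 in SkBr3/Lap (summed signals 219 and 1865), and 1 and 2 in BT474 and BT474/Lap (935 and 693). In BT474 and BT474/Lap VWF alone gave 892 and 594. The part of these markers in the results was not tested, and in total RNA of a culture fewer cells with a transcript and less of it per cell cannot be told apart.

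The chemokine ligands furthest past 2-fold, by a measured value or a limit, were CCL5 and CCL28, which were higher in SkBr3/Lap, CX3CL1, which was lower in both clones, and CXCL14, which was lower in BT474/Lap. The values of CCL5, CCL28 and CXCL14 each rest on 1 probe with 1 spot per array, whereas CX3CL1 had several probes. CCL28, a ligand of CCR10 and CCR3 made by mucosal epithelium, was the member at least 2-fold higher in both clones, with limits of 51.9-fold in SkBr3/Lap and 3.62-fold in BT474/Lap. CX3CL1 (fractalkine), which is made as a membrane-anchored protein, was 16.1-fold lower in SkBr3/Lap and 7.97-fold lower in BT474/Lap, and CCL24, a ligand of CCR3, was close to 2-fold lower in both. Among the 10 members with a signal of at least 100 on at least 1 array, 2 were higher and 2 were lower in SkBr3/Lap by 2-fold or more, where 13.4% and 12.9% of all named genes past this filter were. In BT474/Lap 2 were higher and 6 lower, beside 8.56% and 5.16% of all genes. In both clones, 1 member was higher and 2 were lower, beside 2.46% and 1.21% of all genes. A member that is high on only 1 array enters this filter through that array, so these shares are descriptions. Without the filter, 6 of the 40 members (15%) were higher and 4 (10%) were lower in SkBr3/Lap by the same criterion, beside 10.5% and 11.2% of all genes, and 2 (5%) were higher and 6 (15%) lower in BT474/Lap, beside 7.03% and 4.83%. In both clones, 1 (2.5%) was higher and 2 (5%) were lower, beside 1.86% and 1%.

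**Figure D1:**
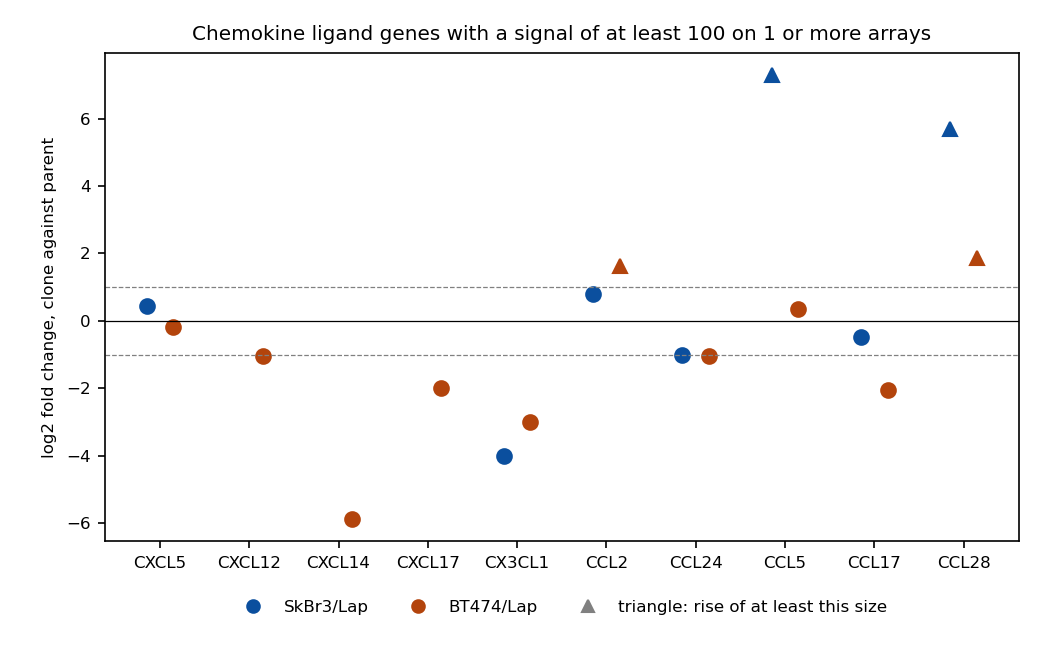
Log2 fold change of each clone against its own parent for the 10 chemokine ligand genes with a signal of at least 100 on 1 or more arrays, with circles for measured changes, triangles for limits (the rise is at least this large) and dashed lines at 2-fold. CCL5 and CCL28 in SkBr3/Lap stand at least 7.30 and 5.70 above the parent, CX3CL1 stands at -4.01 and -3.0, CXCL14 in BT474/Lap stands at -5.88, and no SkBr3/Lap point is drawn for CXCL12, CXCL14 and CXCL17, for which no fold change is given.

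Most chemokine ligand genes gave little or no signal. Of the 40 members, 12 (30%) were well above background on none of the 4 arrays, compared with 12.8% of all named genes, and 8 (20%) on all 4 arrays, compared with 70.0%. The 12 without signal were CCL3, CCL7, CCL8, CCL11, CCL13, CCL16, CCL22, CCL23, CXCL6, CXCL9, CXCL13 and PPBP. They are mostly ligands known from macrophages, lymphoid stroma, liver and platelets, but the sources of the other members were not compared with these. The 8 seen everywhere were CCL4, CCL17, CCL19, CCL21, CCL24, CXCL3, CXCL5 and CX3CL1.

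More members were detected in the resistant clones than in the parental cells. They numbered 12 (30%) in SkBr3 and 25 (62.5%) in SkBr3/Lap, while all named genes went from 74.7% to 81.1%. They numbered 13 (32.5%) in BT474 and 17 (42.5%) in BT474/Lap, beside 76.6% and 81.2% of all genes. The arrays of the clones were the brighter ones, as their 75th percentiles show. For 7 of the 14 members that were well above background in SkBr3/Lap but not in SkBr3, the scaled signal did not exceed the lowest marked signal of the parental array and no fold change is given. Of these 14, 5 (35.7%) were at least 2-fold higher by their limit, beside 31.8% of the 1294 genes of the same kind over the whole array, so the chemokine ligands did not stand out in this respect. Of the 14, 11 had signals between 17.3 and 73.0, below the filter. For the 11 members measured in both SkBr3 and SkBr3/Lap the median log2 fold change was -0.11, beside -0.10 over all genes measured there. For the 13 measured in both BT474 and BT474/Lap it was -0.39, beside -0.10.

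**Figure D2:**
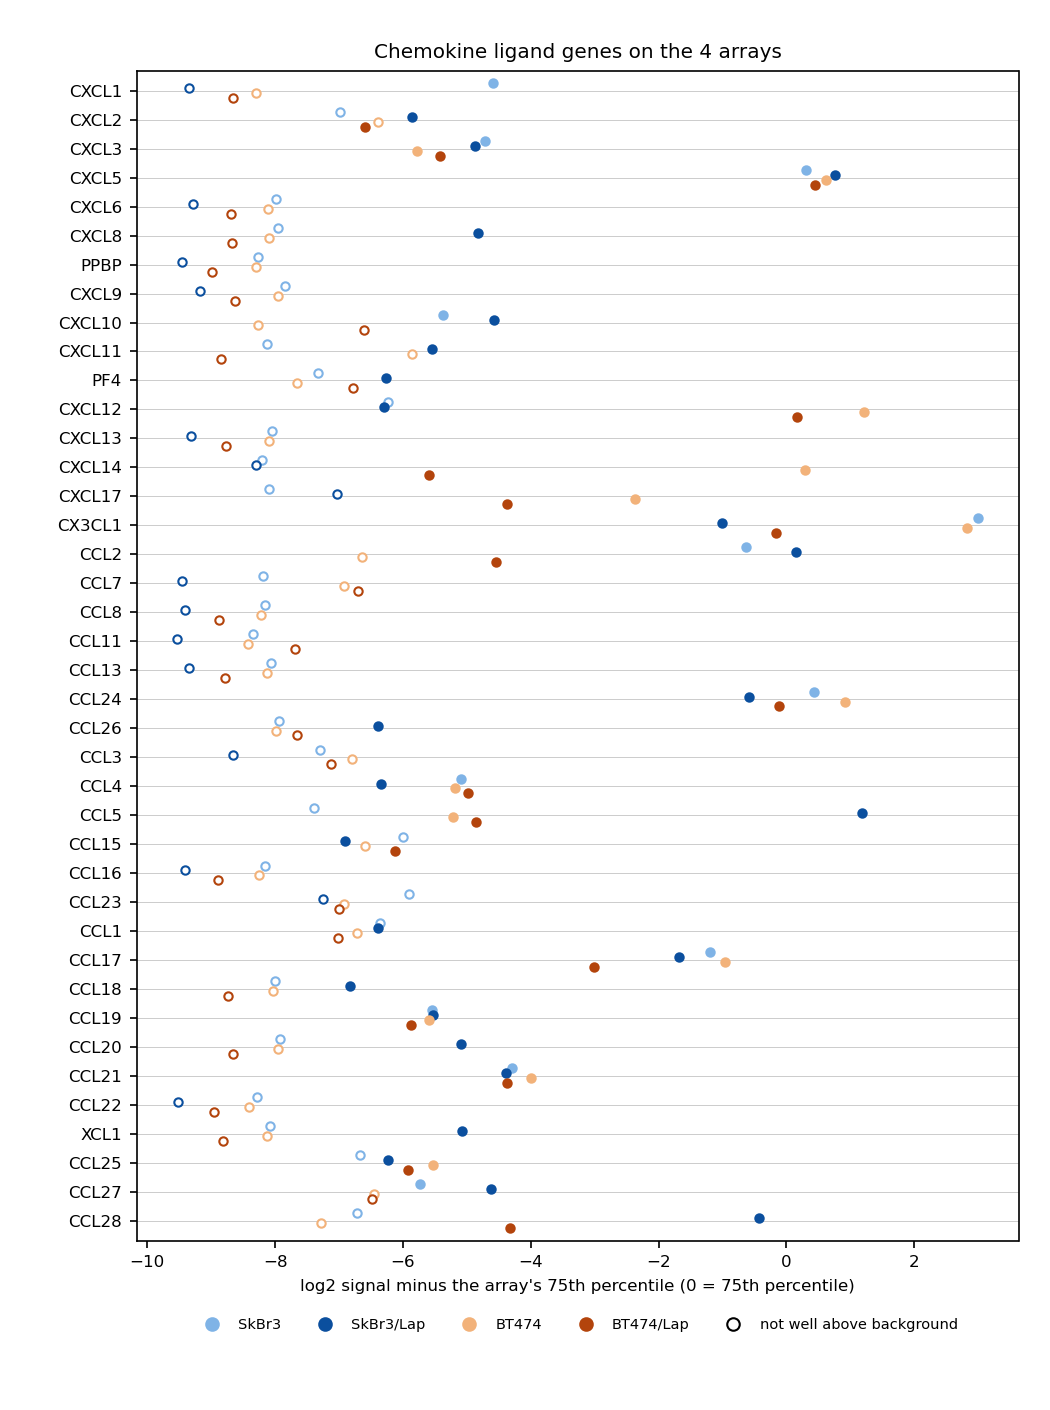
Scaled log2 signal (horizontal axis, 0 is the 75th percentile of the array) of the representative probe of each of the 40 chemokine ligand genes on the 4 arrays, with open circles where the probe was not well above background. More circles are open than filled, CX3CL1 of both parental lines lies to the right of both clones, and CCL5 and CCL28 of SkBr3/Lap lie far to the right of their parent.

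**Figure D3:**
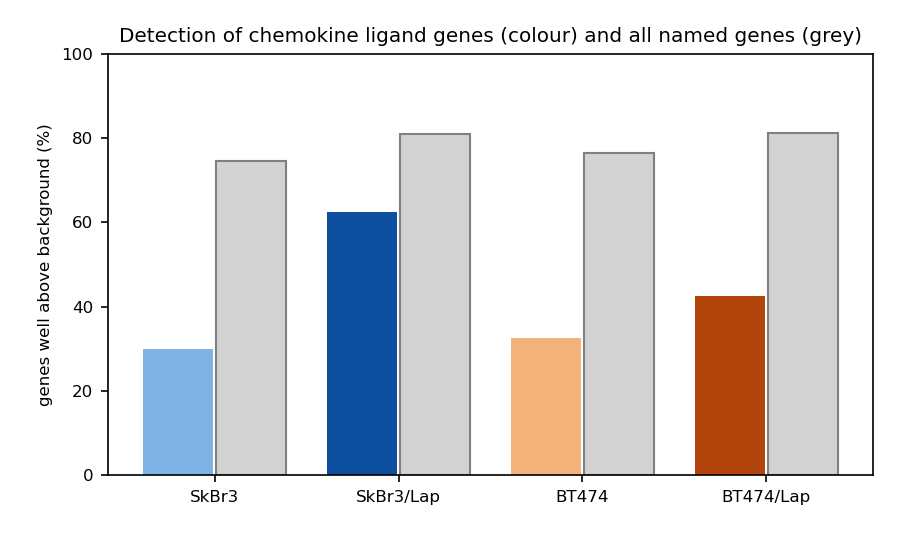
Percentage of the 40 chemokine ligand genes (colored bars) and of the 16422 named genes (grey bars) that were well above background on each array. The colored bars stand at 30% and 62.5% for SkBr3 and SkBr3/Lap and at 32.5% and 42.5% for BT474 and BT474/Lap, below the grey bars throughout.

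The ELR ligands of the CXCL1 to CXCL8 group lie side by side on chromosome 4 and are classical NF-κB targets. The 250 bases before the start of a gene were searched on both strands for GGNNTTTCC, a κB-like pattern, in the RefSeq promoter windows of GRCh38.p14, which held 35 windows of 30 members. The pattern was in 9 of the 35 windows (25.7%), compared with 1926 of all 35116 windows (5.48%). The 9 were those of CCL20, CXCL8, CXCL6, CXCL1, CXCL5, CXCL3, CXCL2, CXCL10 and CXCL11. The windows of CXCL1, CXCL2 and CXCL3 are alike around the pattern, as are those of CXCL5 and CXCL6. The 9 are thus not independent of each other. CXCL5, CXCL6 and CXCL11 hold it 90, 89 and 75 bases before the start, on the opposite strand in CXCL11, and are not shown. A link between the pattern and the signals was not tested. The windows of CXCL1, CXCL2, CXCL3, CXCL8 and CCL20 are shown and were chosen after their signals were seen. Capitals mark the pattern, which begins 78 and 53 bases before the start in CXCL1 and CXCL3, 77 and 53 in CXCL2, 91 in CXCL8 and, on the opposite strand, 79 in CCL20. They are written from 5′ to 3′ along the gene, from chr4:73869143-73869392 (plus strand), chr4:74099196-74099445 and chr4:74038690-74038939 (both minus strand), chr4:73740319-73740568 (plus strand) and chr2:227813592-227813841 (plus strand).
CXCL1: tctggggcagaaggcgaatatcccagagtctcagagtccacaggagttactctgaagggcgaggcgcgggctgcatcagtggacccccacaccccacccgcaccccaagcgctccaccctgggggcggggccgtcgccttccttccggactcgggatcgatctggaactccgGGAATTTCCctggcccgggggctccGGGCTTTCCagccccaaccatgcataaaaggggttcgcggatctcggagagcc
CXCL2: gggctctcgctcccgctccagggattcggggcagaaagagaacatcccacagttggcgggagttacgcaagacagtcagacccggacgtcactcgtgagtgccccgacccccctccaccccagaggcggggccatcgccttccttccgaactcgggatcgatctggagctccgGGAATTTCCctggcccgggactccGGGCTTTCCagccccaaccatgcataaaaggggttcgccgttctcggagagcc
CXCL3: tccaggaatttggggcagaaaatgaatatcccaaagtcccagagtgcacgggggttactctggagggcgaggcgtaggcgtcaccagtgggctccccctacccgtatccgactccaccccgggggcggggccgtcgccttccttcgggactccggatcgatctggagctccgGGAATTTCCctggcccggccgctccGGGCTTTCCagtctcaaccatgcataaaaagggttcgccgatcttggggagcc
CXCL8: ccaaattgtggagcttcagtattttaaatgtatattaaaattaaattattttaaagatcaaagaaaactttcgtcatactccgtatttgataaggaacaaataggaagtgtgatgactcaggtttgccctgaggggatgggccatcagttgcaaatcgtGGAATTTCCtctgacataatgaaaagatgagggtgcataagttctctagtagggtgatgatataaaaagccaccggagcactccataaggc
CCL20: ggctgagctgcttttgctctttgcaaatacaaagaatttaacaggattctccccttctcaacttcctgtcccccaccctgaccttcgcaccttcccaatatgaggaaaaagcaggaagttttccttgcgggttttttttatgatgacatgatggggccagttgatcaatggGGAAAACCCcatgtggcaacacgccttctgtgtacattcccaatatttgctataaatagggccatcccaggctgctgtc

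CXCL1, a neutrophil attractant, had signals of 46.2 in SkBr3 and 3.20 in SkBr3/Lap, and of 3.67 in BT474 and 4.16 in BT474/Lap. It was well above background in SkBr3 alone and was at least 6.46-fold lower in SkBr3/Lap. CXCL8 (interleukin-8) showed the reverse pattern in this line, with signals of 4.50, 73.0, 4.23 and 4.11 in the same order, and was at least 2.45-fold higher in SkBr3/Lap. CCL20, which attracts CCR6-bearing dendritic cells and T cells, had 4.61, 61.0, 4.68 and 4.14, and was at least 2.05-fold higher in SkBr3/Lap. Both were at background in BT474 and BT474/Lap.

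CXCL2 had signals of 8.83, 35.6, 13.7 and 17.4, with a limit of 1.20-fold in SkBr3/Lap, and its second probe was above background in SkBr3/Lap alone (34.9). CXCL3 had 42.2, 70.9, 21.1 and 39.4, and its log2 fold changes were -0.15 in SkBr3/Lap and 0.36 in BT474/Lap. The second CXCL3 probe was well above background in SkBr3/Lap alone (41.5), where it was at least 1.39-fold higher, so the probes of this gene did not agree. CXCL1, CXCL2 and CXCL3 are close paralogs, and probes of 1 can take up transcripts of another. All these signals were below 100.

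CXCL5 was the ELR ligand past the signal filter, with signals of 1384, 3498, 1787 and 2303, and differed by less than 2-fold in both clones (log2 0.44 and -0.17). Its second probe was not well above background on any array, so its level rests on 1 probe, and the mean over both probes gave -0.31 in SkBr3/Lap. CXCL6 and PPBP were at background throughout. Of the 9 members with the κB-like pattern, 2 were higher and 1 was lower in SkBr3/Lap by 2-fold or more, and 4 were well above background in SkBr3/Lap but not in SkBr3, while 1 of the 9 was above it in neither and could not be called. Of the 21 members with a window but without the pattern, 2 were higher, 1 was lower, 7 were above background in the clone alone and 11 were above it in neither. Over all genes 10.5% were higher and 11.2% lower. Of all 16422 named genes, 1294 were above background in SkBr3/Lap alone and 2868 in neither SkBr3 culture. In BT474/Lap none of the 9 passed 2-fold in either direction, with 6 not above background on either array. Of the 21, 1 was higher and 4 were lower, with 13 not above background. Over all genes 7.03% were higher and 4.83% lower, and 2936 of the 16422 were above background in neither BT474 culture. The windows of CCL28, CCL24, CXCL12, CXCL14 and CXCL17 do not hold the pattern. CCL2, CCL5, CCL17 and CX3CL1 were among the members without a window and could not be searched.

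The interferon-inducible ligands of CXCR3 were dim. CXCL9 was at background on all 4 arrays. CXCL10 had signals of 26.9 in SkBr3 and 86.5 in SkBr3/Lap, and of 3.74 in BT474 and 17.2 in BT474/Lap. It was 1.73-fold higher in SkBr3/Lap. CXCL11 had 3.98, 44.4, 20.1 and 3.63, and was at least 1.49-fold higher in SkBr3/Lap, on 1 probe, since its second was not well above background anywhere. TTTC on both sides of any 2 bases, a pattern of interferon-stimulated elements that was searched on both strands as well, was in the windows of CXCL9 and CXCL10, that is 2 of 35 (5.71%) compared with 3.02% of all windows, and did not overlap the κB-like pattern of CXCL10. Other interferon response genes differed more. Of 15 measured, 6 were at least 2-fold higher in SkBr3/Lap, beside 10.5% of all genes, with GBP1, a guanylate-binding GTPase, 11.9-fold and IFIT2, an antiviral protein that binds RNA, 5.05-fold higher. In BT474/Lap, beside 7.03% of all genes higher and 4.83% lower, 4 were higher, with OAS1 3.77-fold and IFIT1 4.50-fold, and 2 were lower, IRF7 by 2.27-fold and GBP1 by a log2 fold change of -1.90, while a second GBP1 probe had a limit of 0.48 in the other direction.

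The homeostatic CXC ligands set BT474 apart from SkBr3. CXCL14, a ligand made by normal epithelium, had signals of 3.78 in SkBr3 and 6.58 in SkBr3/Lap, and of 1414 in BT474 and 34.8 in BT474/Lap. It was at background in both SkBr3 cultures, was at least 85.0-fold higher in parental BT474 than in parental SkBr3, and was 58.9-fold lower in BT474/Lap than in BT474. Among the members measured on both arrays of a pair, no other was lower by as much in either clone.

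CXCL12, the ligand of CXCR4, had signals of 14.8, 26.5, 2686 and 1881 on a probe spotted 10 times. The SD between its spots was 0.08 in BT474 and 0.06 in BT474/Lap on the log2 scale. It was 2.07-fold lower in BT474/Lap by this probe and 2.29-fold lower by a second (335 and 212). With the percentile taken over flagged probes the log2 fold change of the first was -0.94. Its unscaled signal ratio was 0.70, so about 2-fold is reached with the scaling to the 75th percentile. CXCL17, a mucosal ligand, had 4.06, 15.8, 224 and 81.2, and was 4.0-fold lower in BT474/Lap. Like CXCL14 it was not well above background in either SkBr3 culture. CXCL13, the B cell attractant, was at background on all 4 arrays, and PF4, the platelet factor, was above it in SkBr3/Lap alone (27.1), with no fold change given.

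CX3CL1 was high in both parental lines and lower in both clones. Its signals were 8947 in SkBr3 and 1032 in SkBr3/Lap, and 8214 in BT474 and 1495 in BT474/Lap, well above background on all 4 arrays. The parental lines differed by 1.13-fold, and both clones lay below both of them. The log2 fold change was -4.01 in SkBr3/Lap and -3.0 in BT474/Lap. A second probe went from 347 to 60.1 in SkBr3 and from 356 to 62.0 in BT474, 10.7-fold and 8.33-fold lower. The remaining probe went from 167 to 79.4 and from 148 to 77.8, 3.90-fold and 2.76-fold lower. The 3 probes had the same direction in both clones and differed in size, from 2.76-fold to 16.1-fold.

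**Figure D4:**
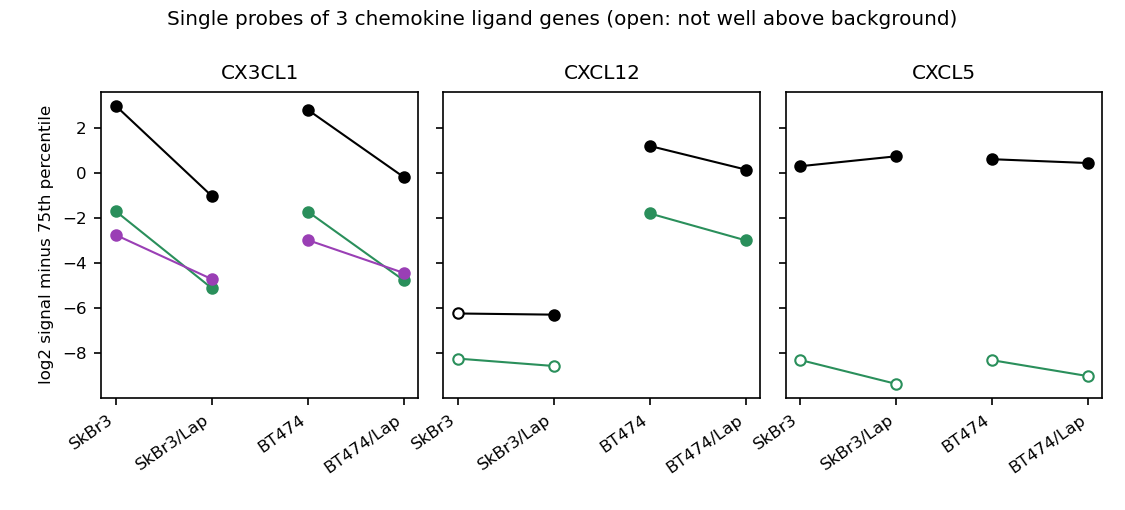
Scaled log2 signal of each probe of CX3CL1, CXCL12 and CXCL5 on the 4 arrays, with lines joining a parental line to its clone and open circles where the probe was not well above background. The 3 probes of CX3CL1 lie lower in both clones, those of CXCL12 are high in BT474 and its clone, and the probes of CXCL5 are far apart, with 1 of them open on all 4 arrays.

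On chromosome 16 CX3CL1 lies between CCL22 and CCL17, with no other protein-coding gene between them in the RefSeq annotation. CCL17, which attracts CCR4-bearing T cells, had signals of 484, 649, 596 and 210. It was 1.39-fold lower in SkBr3/Lap (log2 -0.47), less than 2-fold, and 4.13-fold lower in BT474/Lap (log2 -2.04). CCL22, the other ligand of CCR4, was at background on all 4 arrays. ADAM10 and ADAM17, the proteases that release CX3CL1 from the cell surface, differed by at most 1.12-fold in either clone.

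Among the CC ligands for monocytes and eosinophils, CCL2 and CCL24 had strong signals. CCL2, the monocyte attractant, had signals of 717 in SkBr3 and 2297 in SkBr3/Lap, and of 11.6 in BT474 and 72.1 in BT474/Lap, each the mean of 10 spots. Its 10 spots lay between 662 and 753 in SkBr3, between 2136 and 2432 in SkBr3/Lap, and between 64.2 and 86.2 in BT474/Lap, and in BT474 none of them was well above background. CCL2 was 1.72-fold higher in SkBr3/Lap (log2 0.78), less than 2-fold, and at least 3.11-fold higher in BT474/Lap (log2 1.64). After normexp background correction the latter was 0.60, and with 16 added to the signal it was also below 2-fold. It was at least 46.7-fold higher in parental SkBr3 than in parental BT474, and its signal in BT474/Lap lay below that in SkBr3.

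CCL24 (eotaxin-2) had signals of 1502, 1385, 2193 and 1550. It was 2.02-fold lower in SkBr3/Lap and 2.05-fold lower in BT474/Lap (log2 -1.01 and -1.04). Its unscaled signals differed little, with a ratio of 0.92 in the SkBr3 pair, so the 2-fold difference there is relative to a brighter array. When arrays were scaled by their median, the log2 fold change in SkBr3/Lap was -0.85, and with the percentile taken over flagged probes that in BT474/Lap was -0.93. CCL26, its neighbor on chromosome 7 and another ligand of CCR3, was above background in SkBr3/Lap alone, at 24.7. CCL7, CCL8, CCL11 and CCL13, which lie beside CCL2 on chromosome 17, were at background on all 4 arrays.

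CCL5 (RANTES), a ligand of CCR1 and CCR3 that attracts T cells and monocytes, had the highest limit of any member in a clone against its parent. Its signals were 6.67 in SkBr3 and 4687 in SkBr3/Lap, and 31.2 in BT474 and 57.7 in BT474/Lap. The rise in SkBr3/Lap was at least 157-fold, and that in BT474/Lap was 1.28-fold, less than 2-fold. Further along the same chromosome, CCL3, CCL16 and CCL23 were at background on all 4 arrays. CCL15 was near it, with no fold change given in SkBr3/Lap and a limit of 0.06 on the log2 scale in BT474/Lap. CCL4, which attracts monocytes and T cells, was dim but above background everywhere, with signals of 32.8, 25.6, 31.7 and 53.0. Its log2 fold change was -1.26 in SkBr3/Lap, where the unscaled signals were close, and 0.21 in BT474/Lap. CCL3 and CCL4 have near-identical gene copies, as has XCL1, and a probe may not separate them.

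Of the 3 mucosal and skin homing ligands, CCL27 and CCL28 were at least 2-fold higher in SkBr3/Lap. CCL28 had signals of 10.6 in SkBr3 and 1546 in SkBr3/Lap, and of 7.44 in BT474 and 83.8 in BT474/Lap, at background in both parental lines and well above it in both clones. After normexp background correction its log2 fold change in BT474/Lap was 0.61, less than 2-fold, which ends the call in both clones. CCL27, the skin-homing ligand of CCR10, had 20.9, 84.0, 13.3 and 18.7, and was 2.16-fold higher in SkBr3/Lap. CCL25, the gut-homing ligand of CCR9, had 10.9, 27.6, 25.2 and 27.8 and did not reach 2-fold in either clone. Of the ligands for T cells and dendritic cells, XCL1 had 4.12, 61.6, 4.13 and 3.74 and was at least 2.07-fold higher in SkBr3/Lap. CCL19 and CCL21, ligands of CCR7, were seen on all 4 arrays with signals of 23.8 to 44.8 and 57.0 to 98.6. Their log2 fold changes lay between -0.39 and 0.02. CCL1 and CCL18 were above background in SkBr3/Lap alone, at 24.7 and 18.2, with no fold change given.

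The receptors of these ligands were examined in the same way, and 16 of the 17 chemokine receptor genes listed were matched. CX3CR1, the receptor of CX3CL1, had signals of 1508 in SkBr3 and 9946 in SkBr3/Lap, and of 31.7 in BT474 and 77.6 in BT474/Lap. It was 3.54-fold higher in SkBr3/Lap, where its ligand was lower, and 1.69-fold higher in BT474/Lap. CXCR6, the receptor of CXCL16, had 10, 354, 4.48 and 4.04 and was at least 11.9-fold higher in SkBr3/Lap. CCR1 had 46.3, 343, 23.1 and 58.1, 3.98-fold higher in SkBr3/Lap. CCR7 had 84.5, 627, 120 and 159, 3.98-fold higher in SkBr3/Lap, with a log2 fold change of -0.13 in BT474/Lap. CCR3, a receptor of CCL5, CCL24 and CCL28, had 30.8, 160, 9.78 and 69.5, 2.80-fold higher in SkBr3/Lap and with a limit of 3.0-fold in BT474/Lap. Other probes of these receptors gave less, with log2 fold changes of 0.47 and -0.21 in SkBr3/Lap and BT474/Lap for a second CCR3 probe, a limit of 0.46 in SkBr3/Lap for a second CXCR6 probe, and further probes of CCR1 and CCR3 not well above background on any array.

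These 5 of 16 receptors were those at least 2-fold higher in SkBr3/Lap, beside 10.5% of all genes, and CCR3 was the only one in BT474/Lap, beside 7.03%. CXCR2, the receptor of the ELR ligands, was at least 4.53-fold lower in SkBr3/Lap, and CCR4, the receptor of CCL17, at least 4.70-fold lower in BT474/Lap, both on signals below 50. CXCR4 was well above background on all 4 arrays (422, 767, 728 and 929) and differed by at most 1.14-fold in either clone. CCR10, the other receptor of CCL28, differed by less than 2-fold in both (log2 -0.54 and -0.10). Of 4 atypical receptors measured, which bind chemokines without G protein signaling, CCRL2 was at least 3.30-fold higher in SkBr3/Lap by 1 probe. Its second probe, at background in both SkBr3 cultures, went from 41.6 in BT474 to 11.3 in BT474/Lap, a limit of 4.12-fold.

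**Figure D5:**
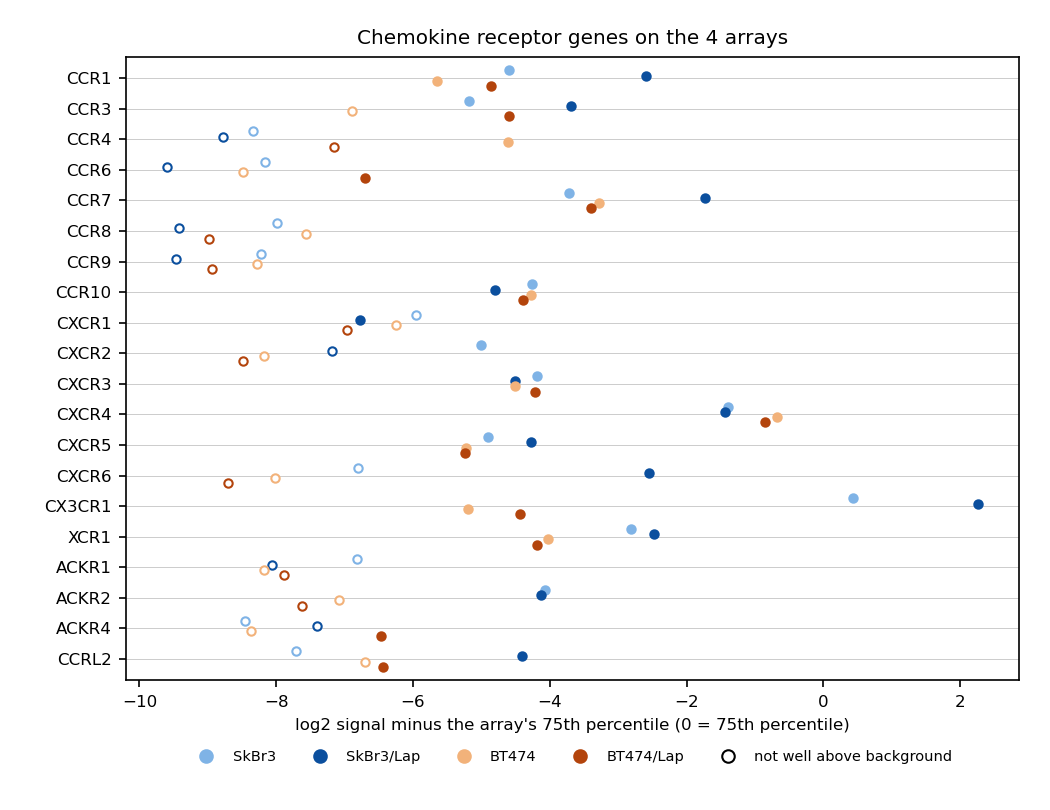
Scaled log2 signal (0 is the 75th percentile of the array) of 16 chemokine receptor and 4 atypical receptor genes on the 4 arrays, with open circles where the probe was not well above background. CCR1, CCR3, CCR7, CXCR6 and CX3CR1 of SkBr3/Lap lie to the right of SkBr3, and CXCR4 lies close together on all 4 arrays.

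Cytokines that induce chemokines differed in SkBr3/Lap as well. IL6 went from 5.93 to 1695 and was at least 56.9-fold higher, TNF went from 224 to 2933 and was 7.04-fold higher (3.09-fold by a second probe), and IL1B went from 3.71 to 69.7 and was at least 2.34-fold higher. These were 3 of the 10 on the list, beside 10.5% of all genes. In BT474/Lap none of the 10 reached 2-fold, where IL6, IL1B and the representative probe of TNF were at background in both cultures and the second TNF probe had a log2 fold change of -0.32. Of the 7 proteases that cleave or release chemokines, 4 were above background on at least 1 array of each pair and none of these reached 2-fold in either clone, with MMP9 at 1.18-fold higher in SkBr3/Lap.

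A fit over all 4 arrays with limma, with resistance as the effect and the cell line as a block, treats the 2 clones as replicates and leaves 1 residual degree of freedom. None of the 13 member probes past the filter had a Benjamini-Hochberg adjusted p-value below 0.05, and none of the 25927 probes tested did (0%). At an unadjusted p-value below 0.05 there were 4 of 13 member probes, beside 3.47% of all probes. These were CCL28 and the 3 probes of CX3CL1. CCL28 passed the filter through SkBr3/Lap alone and was at background in both parental lines, so its fitted value is not given. The brightest CX3CL1 probe had a limma log2 fold change of -3.50 ± 0.50 (SE) and an unadjusted p of 0.0035. All of them had a limma adjusted p of 1.00.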

How the data were processed

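Total RNA of 4 cultures was measured on Agilent 4 × 44 K arrays in a single Cy3 channel. The authors deposited the scanner output, whose processed signal is an intensity from which Feature Extraction 10.1.1.1 (per the file headers) had subtracted the background, with median pixel intensities and flags, and a probe-level table of log2 values. The paper's methods also name LOWESS normalization, which is not used here. The deposited log2 table differed from the log2 processed signals, between arrays, by a median of at most 0.0014 after a constant for each array, and was used as an alternative.

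Spots of 1 probe were averaged on the log2 scale, and each array was scaled to the 75th percentile of its 41000 non-control probes. A probe was well above background when 50% or more of its spots had the software's flag, and no spot was saturated. When only 1 array of a pair had the flag, the other signal was raised, where lower, to the lowest flagged signal of its array, which makes the fold change a limit. Pairs without any flag, and limits under 1, have no fold change. A gene was represented by its probe with the highest mean signal. Probes spotted 10 times had a median SD between spots of 0.075 to 0.081 (log2), and with 1 array per group the number of arrays limits the precision. Probes were named through RefSeq accessions (GRCh38.p14, used for names and gene order, as the headers name another build), and CXCL16, CCR2 and ACKR3 were not matched. Some items are not reported here.

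The signal filter was 100 on at least 1 array. Described with every value are members past it and well above background on at least 1 array. Dimmer members named with values, and CXCR4, CCR10, ADAM10, ADAM17 and MMP9, were chosen after their values were seen, and other genes are those at least 2-fold different in either clone, at most 5 a list. The members, lists and tests were chosen with earlier results of these data known. limma 3.58.1 in R 4.3.3 was used with Benjamini-Hochberg adjustment, and Python 3.11.15 (numpy 2.4.6, pandas 2.3.3, matplotlib 3.10.9) for the rest. The scripts were tested on simulated data. Alternatives were other scalings, normexp correction (offset 50), the deposited table, addition of 16 to the signal, other filters, 3-fold, the mean over probes and outlier spots left out.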

Additional observations from a re-analysis of the deposited data

Results flagged for a closer look

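5 of the ligands, receptors, proteases, cytokines and interferon response genes examined were past 2-fold in at least 1 clone with the opposite sign in the other, and 9 more had opposite signs below 2-fold in both. These counts were not set against all named genes. The difference between the clones was not tested, since each has 1 array. The log2 fold change of the ligand CCL4 was -1.26 in SkBr3/Lap and 0.21 in BT474/Lap, on signals of 25.6 to 53.0. That of the receptor CCR7 was 1.99 in SkBr3/Lap and -0.13 in BT474/Lap. Among the interferon response genes, GBP1 had 3.58 and -1.90 (its second probe had 3.47 and a limit of 0.48), IRF1 had 1.03 and -0.0018, and IRF7 had 0.13 and -1.18. Where a gene had several probes past the signal filter and well above background on all 4 arrays, their log2 fold changes typically spread over 0.28 in either clone. CCL4 did not pass that filter. This spread is between probes on the same arrays and does not measure the spread between cultures. A value above it can therefore also have an uncertain sign. The BT474/Lap values of CCL4, CCR7 and IRF1 and the SkBr3/Lap value of IRF7 were below this spread. The signs of these values are thus uncertain, although a second, dimmer IRF7 probe had 0.55 and -1.29.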

How the results depend on the processing

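With 1 array per group no replicate could be left out, and the depth of an array is its signal over background, which limits every statement on members with signals below about 100. No paired analysis was possible because each group holds only replicate 1, so that replicate numbers pair nothing beyond the cell line, which limma had as its block. Of 44 counts of members recomputed under an alternative, 34 stayed within 1.5 times the reported count. The 2 members lower in SkBr3/Lap became 1 when arrays were scaled by the median, 1 with quantile normalization, 1 at 3-fold and 4 without the filter, CCL24 being the member lost in the first 3. The 2 members higher in SkBr3/Lap became 6 without the filter and 0 when a probe had to be well above background on all 4 arrays. The 2 higher in BT474/Lap became 0 with normexp correction, 1 with 16 added to the signal and 0 with the requirement on all 4 arrays, which left 3 of the 6 lower in BT474/Lap. That requirement removes by construction the members at background in the parental cells. The 75th percentile over probes well above background left 4 of these 6, without CCL24 and CXCL12. The median of all kept probes lay at -0.10 and -0.05 on the log2 scale in SkBr3/Lap and BT474/Lap, and at 0.05 and -0.26 with scaling by the median. No called log2 fold change reversed. Over the alternatives CCL5 in SkBr3/Lap ranged from 5.21 to 7.46, CCL28 from 3.55 to 5.86 and in BT474/Lap from 0.61 to 1.96, CCL2 in BT474/Lap from 0.60 to 1.75, CX3CL1 from -4.04 to -3.13 and from -3.20 to -2.51, and CXCL14 in BT474/Lap from -6.18 to -4.41. limma gave 0 member probes also without the block and without the filter. At an unadjusted limma p below 0.05 there were 4 of 13 member probes without the block, beside 308 of all 25927 probes. Without the filter there were 4 of 50, beside 2043 of all 41000 probes.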
